A study of Mus musculus with 6 samples.

Results

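The genes described here are 10 markers of hippocampal subfields, chosen by their known regional expression, with earlier results of these libraries known. They are *Prox1*, *C1ql2*, and *Dsp* for the dentate gyrus, *Wfs1*, *Fibcd1*, and *Mpped1* for CA1, and *Pcp4*, *Amigo2*, *Bok*, and *Nptx1* for CA2 and CA3. All 10 were found among the 56941 genes of the deposited table, and all 10 were among the 18509 genes tested. RNA was taken from hippocampi of male littermate pairs on a C57BL/6J background, each pair made of 1 homozygous *Hoatz*-deficient mouse (*Hoatz*-/-) and 1 wild-type mouse. Each genotype had 3 mice, aged 172, 146, and 108 postnatal days (replicates 1, 2, and 3). *Hoatz* is associated with motile cilia, and mice lacking it have enlarged brain ventricles, which border the hippocampus. The question asked of the 6 libraries was whether the markers of the subfields stood in the same proportion in each dissected hippocampus.

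The hippocampus is a chain of cell fields. Granule cells of the dentate gyrus send mossy fibres to the pyramidal cells of CA3, CA3 projects to CA1, and the small CA2 field lies between them. Each field transcribes genes that its neighbours use little. The ratio of such genes in a bulk sample depends on how much of each field was dissected and on how much RNA of each gene its cells held. In bulk tissue, fewer cells of a type and less RNA of the marker per cell cannot be told apart.

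The levels below are in TPM, a measure of transcript abundance that corrects for transcript length and has one fixed total for each library. How many reads a level rests on is therefore unknown. The targeted gene, *Hoatz* (GRCm39, chr9:50992355-51013431, minus strand), was listed at 0.35, 0.24, and 0.56 TPM in the libraries of *Hoatz*-/- mice and at 0.13, 0.36, and 0.50 TPM in the wild-type libraries at postnatal days 172, 146, and 108. These values overlapped, and TPM per gene merges all exons, so the genotypes rest on the labels, and the libraries of the *Hoatz*-/- mice are called mutant-labelled. Genes encoded in mitochondria took 26.4% to 32.7% of all TPM in the mutant-labelled libraries and 17.5% to 20.3% in wild-type libraries, and 16279 to 18028 genes against 18666 to 20606 genes reached 0.5 TPM. The median log2 fold change of all genes tested was -0.44. Median-of-ratios scaling brought it to 0.02, quantile normalization to 0.09, and a rescaling that leaves out the mitochondrially encoded genes to -0.24. Directions of single markers are given with the scalings under which they flip, and differences between subfields are given within each library, where a common scaling factor cancels.

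The 2 markers called different between the genotypes, *C1ql2* and *Bok*, and the marker next to them in the test, *Pcp4*, differ in the CpG content of the stretch before their transcription start, and these sequences are shown for that reason. They are the 250 bases upstream of the RefSeq gene start (build GRCm38.p6), 5′ to 3′ on the gene's strand, with CpG dinucleotides in capitals. RefSeq promoters were matched for 9 of the 10 markers.
C1ql2 (chr1:120340332-120340581, plus strand): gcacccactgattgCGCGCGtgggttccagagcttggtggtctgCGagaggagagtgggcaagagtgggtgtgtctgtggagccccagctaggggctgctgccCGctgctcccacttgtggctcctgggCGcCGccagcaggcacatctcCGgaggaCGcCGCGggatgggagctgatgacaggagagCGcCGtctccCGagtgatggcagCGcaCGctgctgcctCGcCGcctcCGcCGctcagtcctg
Bok (chr1:93685325-93685574, plus strand): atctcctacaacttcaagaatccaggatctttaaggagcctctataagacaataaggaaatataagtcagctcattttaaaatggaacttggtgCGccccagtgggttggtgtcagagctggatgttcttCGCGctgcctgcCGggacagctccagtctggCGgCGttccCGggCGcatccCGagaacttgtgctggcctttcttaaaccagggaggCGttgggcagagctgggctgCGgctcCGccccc
Pcp4 (chr16:96467356-96467605, plus strand): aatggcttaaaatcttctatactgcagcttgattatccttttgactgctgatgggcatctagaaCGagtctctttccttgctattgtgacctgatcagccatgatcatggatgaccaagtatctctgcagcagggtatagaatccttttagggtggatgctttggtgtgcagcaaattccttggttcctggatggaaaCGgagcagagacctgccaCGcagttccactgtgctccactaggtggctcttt
The *C1ql2* stretch held 20 CpG dinucleotides, the *Bok* stretch 12, and the *Pcp4* stretch 3, and the median over the 32851 mouse promoters of the same length was 6. The letters TATAAA, searched on both strands, were in none of these 3 stretches and in 12.37% of all promoters. The letters GGGCGG, also searched on both strands, were found once in *Bok*, not in *C1ql2* or *Pcp4*, and in 32.74% of all promoters. These matches describe the letters only.

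Every library held all 10 markers at 2.47 TPM or more. In the wild-type libraries the order by median level ran from *Pcp4* through *Nptx1*, *Mpped1*, *C1ql2*, *Fibcd1*, *Bok*, *Wfs1*, *Prox1*, and *Amigo2* to *Dsp*. Ranges of neighbours in this order were separate between *Pcp4* and *Nptx1*, between *C1ql2* and *Fibcd1*, and on both sides of *Amigo2*, and they overlapped elsewhere. In the mutant-labelled libraries the order was *Pcp4*, *Mpped1*, *Nptx1*, *Bok*, *C1ql2*, *Wfs1*, *Fibcd1*, *Prox1*, *Amigo2*, and *Dsp*. *Bok* stood above *C1ql2* in all 3 mutant-labelled libraries and below it in all 3 wild-type libraries. The log2 ratio of *C1ql2* to *Bok* was -0.12, -0.32, and -0.83 in the former and 1.23, 0.82, and 1.78 in the latter at postnatal days 172, 146, and 108. The markers also moved together from library to library within a genotype. The postnatal day 108 library was the highest of the mutant-labelled libraries for 8 of the 10 markers, and the postnatal day 172 library was the lowest for 8. Among wild-type libraries, the postnatal day 146 library was the lowest for 8 markers and the postnatal day 172 library the highest for 6. The size factor of median-of-ratios scaling, which is set by the typical gene, was 0.699, 0.776, and 1.14 in the mutant-labelled libraries at postnatal days 172, 146, and 108. In wild-type libraries it was 1.18, 1.09, and 1.31. Apart from the highest wild-type library, this pattern was thus not particular to the markers. The lowest share of mitochondrially encoded genes among mutant-labelled libraries was in the postnatal day 108 library (26.4%), and the highest among wild-type libraries was in the postnatal day 146 library (20.3%). The part of this share in the marker levels within a genotype was not tested.

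**Figure D1:**
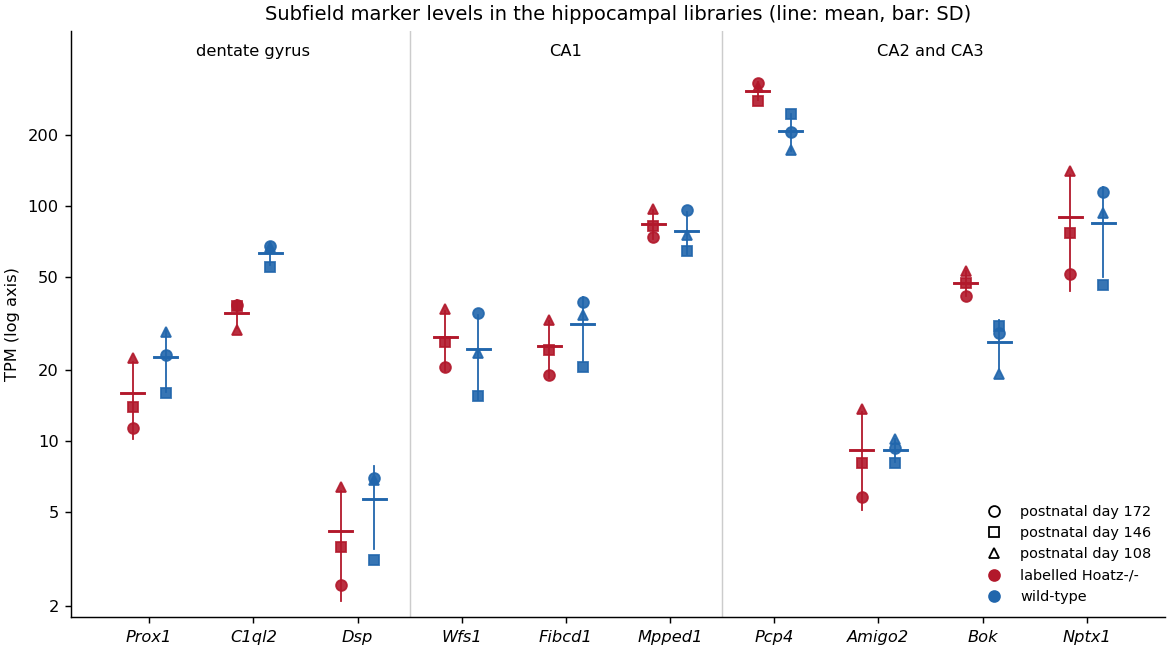
TPM of the 10 subfield markers on a log axis, with 1 symbol per library, colour for genotype, shape for postnatal day, a horizontal line for the mean, and a bar for the SD (n = 3 per genotype). The genotypes do not overlap for *C1ql2*, where the mutant-labelled libraries are lower, or for *Pcp4* and *Bok*, where they are higher.

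Of the dentate gyrus markers, *C1ql2* was lower in the mutant-labelled libraries, and *Prox1* and *Dsp* did not pass the test. *C1ql2* (ENSMUSG00000036907; GRCm39, chr1:120268300-120270903, plus strand) encodes a secreted C1q-like protein that granule cells release at mossy fibre synapses. Its level was 38.09, 37.42, and 29.61 TPM in the mutant-labelled libraries at postnatal days 172, 146, and 108 and 67.39, 54.89, and 66.70 TPM in their wild-type partners. The highest mutant-labelled library lay below the lowest wild-type library. Its log2 fold change was -0.85 (SE 0.21, 95% interval -1.31 to -0.38, limma adjusted p = 0.0200), and every pair had the same direction, at -0.82, -0.55, and -1.17. This was -0.40 relative to the median of all genes. After median-of-ratios scaling it was -0.37 with a limma adjusted p of 0.386, so the call depends on the scaling. The direction was negative under all 23 alternatives, but many of them could not reverse it. Genotypes that are separate keep their direction when libraries are left out or the pseudocount changes. Other filters, the pair as a block, and the intensity trend do not alter the fold change. Leaving out the postnatal day 146 mutant-labelled library (limma adjusted p = 0.0788), the wild-type postnatal day 172 library (0.0618), or the wild-type postnatal day 108 library (0.0993) also ended the call, as did leaving out the intensity trend (0.0521) and the correction for gene span (0.125, log2 fold change -0.44). In all, the call was lost under 12 of the 23 alternatives.

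*Prox1* (chr1:189850232-189904637, minus strand) encodes the homeobox factor that keeps granule cells in their identity. Its level was 11.37, 14.04, and 22.49 TPM in the mutant-labelled libraries and 23.18, 16.06, and 29.13 TPM in wild-type libraries. The genotypes overlapped, although in each pair the mutant-labelled library was the lower. The difference on the log2 scale was -0.53 (SE 0.32, 95% interval -1.26 to 0.20, limma adjusted p = 0.285), and it was -0.048 after median-of-ratios scaling. Without the postnatal day 108 mutant-labelled library it was -0.80 with a limma adjusted p of 0.0446. *Prox1os*, transcribed from the opposite strand, overlaps the gene and was at 4.22 to 8.08 TPM. *Dsp* (chr13:38335230-38382553, plus strand) encodes desmoplakin, the plaque protein that ties desmosomes to intermediate filaments. It was the lowest of the markers, at 2.47, 3.55, and 6.42 TPM in the mutant-labelled libraries and 7.01, 3.15, and 6.88 TPM in wild-type libraries. The genotypes overlapped widely, with the wild-type postnatal day 146 library below 2 of the mutant-labelled libraries. Its log2 fold change was -0.47 (SE 0.45, 95% interval -1.47 to 0.54, limma adjusted p = 0.501) and 0.0043 after median-of-ratios scaling, so its sign depends on the scaling.

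On the deposited scale none of the CA1 markers passed the limma test, where 0.924% of all genes were called higher and 19.6% lower. There, 0 of the 3 had an unadjusted limma p below 0.05, beside 2.50% of all genes higher and 31.7% lower. After median-of-ratios scaling 2 of the 3 were higher at that unadjusted threshold and 0 lower, beside 15.6% and 18.5% of all genes. *Wfs1* (chr5:37106176-37153872, minus strand) encodes wolframin, a membrane protein of the endoplasmic reticulum. Its level was 20.70, 26.29, and 36.44 TPM in the mutant-labelled libraries and 35.03, 15.56, and 23.63 TPM in wild-type libraries. The postnatal day 172 pair and the other pairs pointed in opposite directions, at -0.76 against 0.75 and 0.62. Over all libraries the log2 fold change was 0.21 (SE 0.33, 95% interval -0.55 to 0.96, limma adjusted p = 0.704). *Ppp2r2c*, a gene on the opposite strand that overlaps *Wfs1*, was at 75.25 to 191.62 TPM, and the strand setting of the quantification is not given in the sources used here. *Fibcd1* (chr2:31702948-31736233, minus strand) encodes a membrane receptor with a fibrinogen-like domain that binds acetylated sugars. It was at 19.17, 24.45, and 32.87 TPM in the mutant-labelled libraries and 39.09, 20.76, and 34.25 TPM in wild-type libraries. The genotypes overlapped, and the log2 fold change was -0.28 (SE 0.30, 95% interval -0.97 to 0.40, limma adjusted p = 0.551) with a sign that flipped to 0.20 after median-of-ratios scaling and to 0.16 after quantile normalization.

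*Mpped1* (chr15:83656262-83742695, plus strand) encodes a protein with a metallophosphoesterase domain. Its level was 73.48, 81.65, and 96.59 TPM in the mutant-labelled libraries and 95.53, 64.45, and 75.20 TPM in wild-type libraries. The wild-type postnatal day 172 library lay among the values of the other genotype and its remaining libraries lay near or below the lowest of them. Together they gave a log2 fold change of 0.11 (SE 0.22, 95% interval -0.38 to 0.60, limma adjusted p = 0.768). It was 0.59 after median-of-ratios scaling (limma adjusted p = 0.0662), and with the pairs as a replicate block on that scale it passed the test (limma adjusted p = 0.0428). *Wfs1* was at 0.69 on the median-of-ratios scale (limma adjusted p = 0.103).

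Of the CA2 and CA3 markers, *Bok* was higher in the mutant-labelled libraries, *Pcp4* was separate between the genotypes without passing the test, and *Amigo2* and *Nptx1* overlapped. *Bok* (ENSMUSG00000026278; chr1:93613193-93623498, plus strand) encodes a member of the BCL-2 family and is used here as a CA3 marker. Its level was 41.44, 46.80, and 52.71 TPM in the mutant-labelled libraries and 28.75, 31.00, and 19.33 TPM in wild-type libraries. Every mutant-labelled library lay above every wild-type library. Its log2 fold change was 0.85 (SE 0.24, 95% interval 0.31 to 1.40, limma adjusted p = 0.0356), and the pairs gave 0.53, 0.59, and 1.44. After median-of-ratios scaling it was 1.33 (limma adjusted p = 0.0125), and it was positive under all 23 alternatives. The alternatives that could not reverse *C1ql2* could not reverse *Bok* either. The call was lost without the filter on low genes (limma adjusted p = 0.0587), and on leaving out the mutant-labelled libraries of postnatal day 172 (0.0572) or 146 (0.135), or the wild-type libraries of postnatal day 172 (0.0623), 146 (0.0522), or 108 (0.162). It was also lost without the intensity trend (0.0755), with the correction for gene span (0.0766), and on leaving out any of the pairs (0.0622 to 0.212), which makes 11 of the 23 alternatives.

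*Pcp4* (ENSMUSG00000090223; chr16:96268806-96326997, plus strand) encodes a small calmodulin-binding protein that is abundant in CA2. It had the highest level of the markers in each library, at 330.17, 277.64, and 317.66 TPM in the mutant-labelled libraries and 204.89, 246.05, and 172.19 TPM in wild-type libraries. The genotypes did not overlap, and the closest libraries were those of postnatal day 146. This gave a log2 fold change of 0.58 (SE 0.20, 95% interval 0.14 to 1.03) with a limma adjusted p of 0.0680. On the median-of-ratios scale it was 1.06 and passed the test (limma adjusted p = 0.0341), as it did after quantile normalization (0.84, limma adjusted p = 0.0216) and after rescaling without mitochondrially encoded genes (0.80, limma adjusted p = 0.0269).

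*Amigo2* (chr15:97142006-97145196, minus strand) encodes a cell adhesion protein with leucine-rich repeats and marks CA2 with *Pcp4*. It was at 5.82, 8.06, and 13.75 TPM in the mutant-labelled libraries and 9.39, 8.12, and 10.19 TPM in wild-type libraries. All wild-type values lay within the range of the mutant-labelled libraries. The log2 fold change was -0.088 (SE 0.34, 95% interval -0.85 to 0.67, limma adjusted p = 0.884), with a sign that flipped to 0.39 after median-of-ratios scaling and to 0.40, 0.13, and 0.0065 after quantile normalization, rescaling without mitochondrially encoded genes, and centring on pan-neuronal genes. *Nptx1* (chr11:119428472-119438585, minus strand) encodes neuronal pentraxin 1, a secreted protein that gathers AMPA receptors at synapses. Its level was 51.23, 76.86, and 140.51 TPM in the mutant-labelled libraries and 114.52, 46.10, and 93.45 TPM in wild-type libraries, the widest spread of log2 levels within either genotype (SD 0.73 and 0.69). Between the genotypes the log2 fold change was 0.055 (SE 0.42, 95% interval -0.89 to 1.0, limma adjusted p = 0.943). Markers assigned to the same field thus did not stand in a fixed ratio. The log2 ratio of *Bok* to *Nptx1* was -0.31, -0.71, and -1.41 in the mutant-labelled libraries and -1.99, -0.57, and -2.27 in wild-type libraries, and that of *Pcp4* to *Amigo2* was 5.80, 5.09, and 4.52 against 4.43, 4.90, and 4.07. In both ratios the genotypes overlapped.

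Over the 10 markers, 1 was called higher and 1 was called lower at an adjusted p below 0.05, where 0.924% of all genes tested were called higher and 19.6% lower. After median-of-ratios scaling, 2 were called higher (*Pcp4* and *Bok*) and 0 lower, against 7.50% and 12.3% of all genes. At an unadjusted limma p below 0.05 on that scale, 4 were higher and 0 lower, against 15.6% and 18.5% of all genes. Of these 4, 2 were CA1 markers and 2 were CA2 and CA3 markers. With the unadjusted p of limma on the deposited scale, *Bok* and *Pcp4* were higher and *C1ql2* lower at p below 0.05, where 2.50% of all genes were higher and 31.7% lower. The genotypes did not overlap for *Pcp4* and *Bok* on the higher side, where 3.42% of all genes were separate, and for *C1ql2* on the lower side, where 34.1% of all genes were separate. The median log2 fold change was -0.53 for the dentate gyrus markers, 0.11 for the CA1 markers, and 0.32 for the CA2 and CA3 markers, beside -0.44 for all genes tested. Within the pairs, 4, 9, and 8 of the 10 markers stood above the median difference of all genes at postnatal days 172, 146, and 108, and those medians were -0.72, -0.47, and -0.21. The dentate gyrus markers stood above it in 0, 2, and 1 of 3 cases, the CA1 markers in 1, 3, and 3 of 3, and the CA2 and CA3 markers in 3, 4, and 4 of 4.

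**Figure D2:**
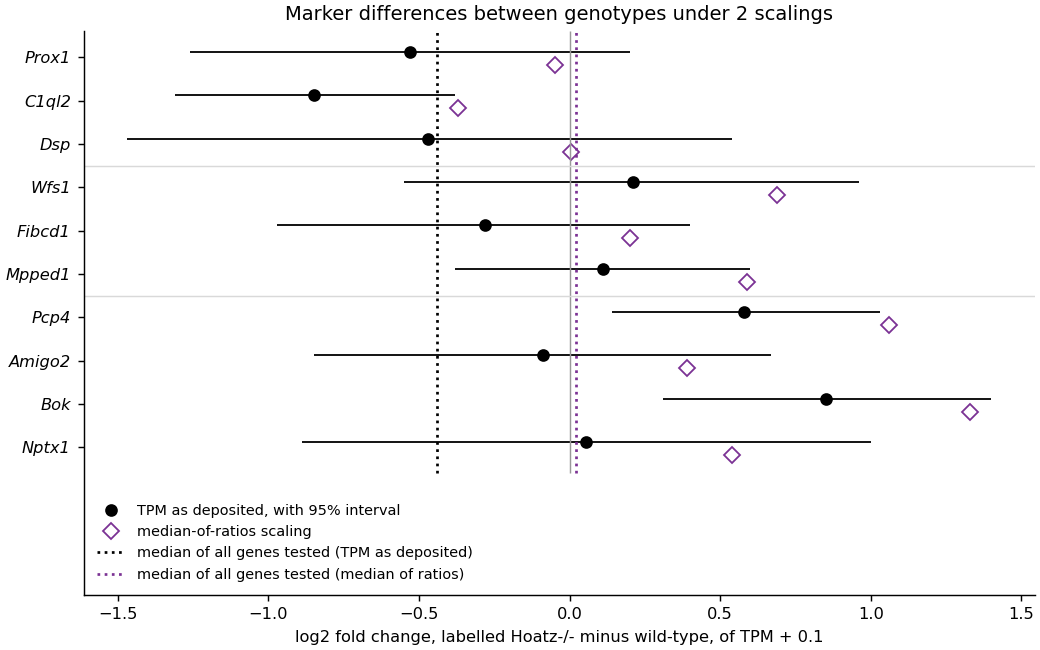
Log2 fold change of each marker (mutant-labelled libraries minus wild-type, n = 3 each, on TPM + 0.1), with filled circles and 95% intervals for the deposited TPM, open diamonds for median-of-ratios scaling, and dotted lines for the median of all genes tested (-0.44 and 0.02). The interval of *C1ql2* lies below 0 and those of *Pcp4* and *Bok* lie above it, and the change of scale moves every marker to the right.

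The proportion of the subfield markers was then compared within each library. The mean log2(TPM + 0.1) of the markers of one subfield was subtracted from that of another, so the scaling of the library drops out. The dentate gyrus markers minus the CA1 markers gave -1.57, -1.59, and -1.58 in the mutant-labelled libraries at postnatal days 172, 146, and 108 and -1.19, -0.96, and -0.72 in wild-type libraries. The mutant-labelled libraries lay within a few hundredths of one another (-1.58 ± 0.010, SD, n = 3), the wild-type libraries spread more (-0.96 ± 0.23, SD, n = 3), and the genotypes did not overlap. The dentate gyrus markers minus the CA2 and CA3 markers gave -2.12, -2.10, and -2.21 against -1.17, -1.54, and -0.83, again with no overlap. The means were -2.14 ± 0.058 and -1.18 ± 0.35 (SD, n = 3 each). For the CA1 markers minus the CA2 and CA3 markers, the values were -0.55, -0.51, and -0.63 against 0.01, -0.58, and -0.10. Here the wild-type postnatal day 146 library lay among the mutant-labelled libraries, and the genotypes overlapped. The differences between the genotype means were -0.62, -0.96, and -0.34 on the log2 scale. They are given as descriptions with no test, since each rests on a list of markers chosen with results of these libraries known.

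**Figure D3:**
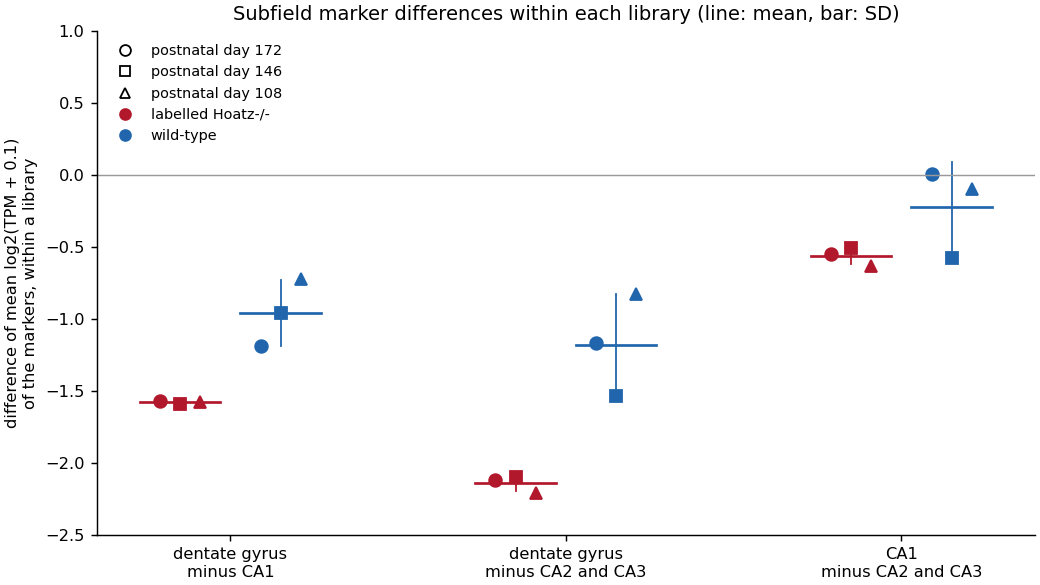
Difference between the mean log2(TPM + 0.1) of the markers of each pair of subfields within a library, with 1 symbol per library, colour for genotype, shape for postnatal day, a line for the mean, and a bar for the SD (n = 3). The genotypes are separate for the dentate gyrus against CA1 and against CA2 and CA3, and they overlap for CA1 against CA2 and CA3.

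On a linear scale, the geometric mean of the dentate gyrus markers made up 12.0%, 12.0%, and 11.6% of the sum of the geometric means of the subfields in the mutant-labelled libraries. It made up 18.1%, 17.1%, and 22.6% in the wild-type libraries. The CA1 markers made up 35.7%, 36.3%, and 34.7% against 41.2%, 33.2%, and 37.3%, and the CA2 and CA3 markers made up 52.2%, 51.7%, and 53.7% against 40.7%, 49.7%, and 40.1%. The dentate gyrus share was thus lower, and the CA2 and CA3 share higher, in every mutant-labelled library than in every wild-type library. These are shares of marker RNA and not of tissue, since markers differ in how much RNA a cell holds. The wild-type postnatal day 146 library stood nearest to the mutant-labelled libraries in its dentate gyrus and CA2 and CA3 shares. Leaving out any 1 marker kept the dentate gyrus differences separate between the genotypes, at -0.77 to -0.51 against CA1 and -1.11 to -0.80 against CA2 and CA3. Leaving out any 1 library or pair gave -0.74 to -0.51 and -1.17 to -0.76. For CA1 minus CA2 and CA3, leaving out 1 marker gave -0.49 to -0.17 and leaving out 1 library or pair gave -0.55 to -0.22. This difference was -0.22 without the wild-type postnatal day 172 library, and without the wild-type postnatal day 146 library it was -0.52 and the genotypes were separate. Over all 26 alternatives run, the genotypes were separate in 8 for CA1 minus CA2 and CA3, in 25 for the dentate gyrus minus CA1, and in 26 for the dentate gyrus minus CA2 and CA3. For the dentate gyrus differences much of this was fixed beforehand. Genotypes that are separate stay so when a library or pair is left out. A difference also stays the same when a marker outside it is left out. With the median over markers in place of the mean, the dentate gyrus difference to CA1 was -0.37 and the genotypes overlapped.

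The wider lists hold other genes known from each field, and of their 30 genes 29 were tested. Of these, limma called 0 higher and 7 lower, where 0.924% and 19.6% of all genes were called. With the littermate pair as a block, limma called 0 higher and 11 lower, where 1.18% and 25.5% of all genes were called. These were the 7 genes above with *Lct* (limma adjusted p = 0.0334) and *Sema5b* (0.0408) of the dentate gyrus list, *Tyro3* (0.0454) of the CA1 list, and *Stard5* (0.0156) of the CA2 list. At an unadjusted limma p below 0.05 without the block, 1 was higher and 12 were lower, against 2.50% and 31.7% of all genes. After median-of-ratios scaling 3 were called higher and 4 lower, against 7.50% and 12.3% of all genes. The median log2 fold change over the wider lists was -0.46, beside -0.44 for all genes tested. Of the 10 wider dentate gyrus genes, 2 were called lower. *C1ql3*, a secreted C1q-like protein like *C1ql2*, was at 42.63, 56.75, and 58.53 TPM in the mutant-labelled libraries and 180.87, 181.61, and 232.86 TPM in wild-type libraries (log2 fold change -1.92, SE 0.21, limma adjusted p = 0.000894). *Dock10*, an activator of small GTPases, was at 14.06, 17.32, and 34.55 TPM against 55.89, 51.73, and 76.49 TPM (-1.57, SE 0.34, limma adjusted p = 0.0122). Both were separate between the genotypes and stayed lower after median-of-ratios scaling, at -1.43 and -1.09 (limma adjusted p = 0.00350 and 0.00969). The gene of this list with the smallest difference was *Stxbp6*, a regulator of vesicle fusion, at 0.058 (SE 0.25, limma adjusted p = 0.896). It was called higher after median-of-ratios scaling (0.54, limma adjusted p = 0.0471).

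Of the 7 wider CA1 genes, 2 were called lower, beside 19.6% of all genes. *Pou3f1*, a POU-domain transcription factor of pyramidal cells, was at 19.46, 22.03, and 17.52 TPM in the mutant-labelled libraries and 67.11, 79.12, and 91.10 TPM in wild-type libraries (log2 fold change -2.0, SE 0.21, limma adjusted p = 0.000782). *Man1a*, a mannosidase of N-glycan trimming, was at 13.83, 17.56, and 23.65 TPM against 29.93, 28.84, and 42.14 TPM (-0.88, SE 0.27, limma adjusted p = 0.0471). *Pou3f1* stayed lower on the median-of-ratios scale (-1.52, limma adjusted p = 0.00777) and *Man1a* did not pass there (-0.40, limma adjusted p = 0.111). The CA1 lists thus held *Pou3f1* at -2.0 beside *Wfs1* and *Mpped1*, whose intervals on the deposited scale reached no lower than -0.55. *Fibcd1* was at -0.28, and its interval reached down to -0.97.

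Of the 7 wider CA2 genes tested, 1 was called lower, beside 19.6% of all genes, and *Map3k15* stayed below the level needed for testing, at 0.24 to 0.57 TPM. *Ntf3*, the neurotrophin NT-3, was at 4.79, 5.09, and 6.73 TPM in the mutant-labelled libraries and 8.72, 12.08, and 11.02 TPM in wild-type libraries (log2 fold change -0.93, SE 0.28, limma adjusted p = 0.0428). *Cacng5*, an auxiliary subunit of AMPA receptors, had the smallest difference, at 0.034 (SE 0.36, limma adjusted p = 0.958). After median-of-ratios scaling *Ntf3* was at -0.45 (limma adjusted p = 0.162). On that scale 2 genes of this list were called higher and 0 lower, beside 7.50% and 12.3% of all genes. They were *Rgs14* (0.83, limma adjusted p = 0.0200) and *Necab2* (1.17, limma adjusted p = 0.0237). Of the 5 wider CA3 genes, 2 were called lower, again beside 19.6%. *Grik4*, a kainate receptor subunit, was at 11.27, 14.04, and 16.96 TPM against 40.89, 39.42, and 58.81 TPM (-1.71, SE 0.25, limma adjusted p = 0.00249). *Hs3st4*, an enzyme that sulfates heparan sulfate, was at 35.57, 38.02, and 36.55 TPM against 73.29, 55.95, and 60.52 TPM (-0.77, SE 0.20, limma adjusted p = 0.0232). *Grik4* stayed lower after median-of-ratios scaling (-1.23, limma adjusted p = 0.00393) and *Hs3st4* did not pass there (-0.29, limma adjusted p = 0.391). *Cdh24*, a cadherin, had the smallest difference, at -0.096 (SE 0.49, limma adjusted p = 0.915). The CA3 genes thus lay on both sides of 0, with *Bok* called higher and *Grik4* and *Hs3st4* called lower. With the wider genes added to the markers, the differences between the genotypes were -0.31 for the dentate gyrus minus CA1, -0.60 for the dentate gyrus minus CA2 and CA3, and -0.29 for CA1 minus CA2 and CA3, and the genotypes did not overlap in any of them.

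**Figure D4:**
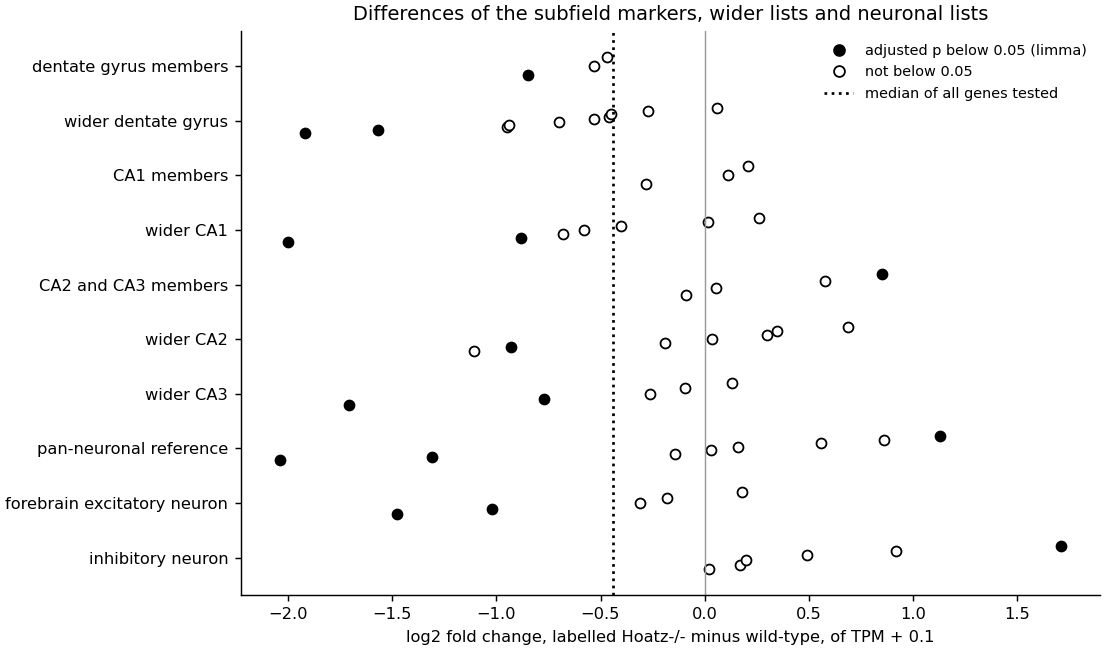
Log2 fold change (mutant-labelled libraries minus wild-type, n = 3 each, on TPM + 0.1) of each gene of the subfield markers, the wider subfield lists, and the neuronal lists, 1 circle per gene, filled where the limma adjusted p was below 0.05, with a dotted line at the median of all genes tested (-0.44). Genes of 1 list lie on both sides of that line, from -2.04 (*Rbfox3*) to 1.13 (*Thy1*) among pan-neuronal genes.

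Genes that neurons of every field share covered a wider range of differences than the subfield markers. Among 8 pan-neuronal genes, *Rbfox3*, the gene of the NeuN antigen, was called lower with a log2 fold change of -2.04 (SE 0.18, limma adjusted p = 0.000576). *Nefl*, the light neurofilament chain, was at -1.31 (SE 0.21, limma adjusted p = 0.00306), and *Thy1*, a surface glycoprotein of neurons, was called higher at 1.13 (SE 0.29, limma adjusted p = 0.0248). The smallest difference in this list was that of *Tubb3*, a neuronal tubulin, at 0.033 (SE 0.22, limma adjusted p = 0.935). Of 5 forebrain excitatory neuron genes, the transcription factors *Neurod2* and *Neurod6* were called lower (-1.48 and -1.02, limma adjusted p = 0.00260 and 0.00723), and *Slc17a7*, the vesicular glutamate transporter of these cells, had a difference of 0.18. The calls of both lists are on the deposited scale, where 0.924% of all genes were called higher and 19.6% lower. After median-of-ratios scaling 3 pan-neuronal genes were called higher and 1 lower, and 1 forebrain excitatory gene was called lower, beside 7.50% and 12.3% of all genes. The differences of *C1ql2*, *Bok*, and *Pcp4* lay inside the range that pan-neuronal genes covered. The part of this spread in the subfield differences was not tested.

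Lists of other cells the dissection could hold were read beside the markers, on the deposited scale first, where 0.924% of all genes were called higher and 19.6% lower. Of 3 mossy cell genes, *Calb2*, which encodes calretinin, was called higher (1.07, SE 0.27, limma adjusted p = 0.0217), and *Calcrl* had the smallest difference (0.63, limma adjusted p = 0.270). *Drd2*, a dopamine receptor gene, had a negative difference (-0.70, limma adjusted p = 0.206), at 1.33 to 2.28 TPM in the mutant-labelled libraries and 2.44 to 3.11 TPM in wild-type libraries. The summed level of this list was 31.51 to 49.55 TPM against 19.07 to 26.01 TPM, and most of it was *Calb2*, at 26.97 to 41.4 TPM against 12.64 to 20.32 TPM. Of 6 inhibitory neuron genes, *Sst*, the gene of somatostatin, was called higher (1.71, SE 0.29, limma adjusted p = 0.00408), *Pvalb* had the smallest difference (0.019), and the sums were 487.3 to 779.2 TPM against 265.2 to 431.4 TPM. Without *Sst* the sums overlapped, at 214.1 to 361.4 TPM against 171.0 to 300.1 TPM. Of 6 microglia genes, 2 were called higher, among them *C1qa* (1.65, limma adjusted p = 0.00467), *P2ry12* had the smallest difference (0.19), and the sums were 230.3 to 270.6 TPM against 143.1 to 198.5 TPM. *Cx3cr1*, the fractalkine receptor gene, had a negative difference (-0.30, limma adjusted p = 0.392), at 12.35 to 16.27 TPM against 16.53 to 20.32 TPM. The astrocyte sums were 690.2 to 1182 TPM against 601.3 to 856.2 TPM and the oligodendrocyte sums 3194 to 4355 TPM against 4095 to 4752 TPM, with no gene of either list called by limma. At an unadjusted limma p below 0.05, 2 astrocyte genes were higher and 1 lower, and 0 oligodendrocyte genes passed. At that threshold 2.50% of all genes were higher and 31.7% lower. None of the 2 subiculum genes was called by limma. *Nts*, which encodes neurotensin, had a difference of 0.58 with an unadjusted limma p of 0.0436 (adjusted p = 0.134) and was separate between the genotypes, at 12.6 to 13.63 TPM against 6.94 to 9.65 TPM. *Fn1* had a difference of -0.38 (limma adjusted p = 0.658) and overlapped. After median-of-ratios scaling, where 7.50% of all genes were called higher and 12.3% lower, limma called more genes of these lists higher and 0 lower. These were 2 of the 3 mossy cell genes, 3 of the 6 inhibitory neuron genes, 5 of the 6 microglia genes, *Nts* of the subiculum list (1.06, limma adjusted p = 0.0312), *Aqp4*, *Slc1a3*, and *Gja1* of the astrocyte list (limma adjusted p = 0.00443, 0.0198, and 0.0122), and *Mog* of the oligodendrocyte list (0.0217).

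Of the 22 genes listed for thalamus, neocortex, and striatum, limma called 1 higher and 3 lower, where 0.924% and 19.6% of all genes were called, and with the pair as a block 1 higher and 5 lower, where 1.18% and 25.5% were. After median-of-ratios scaling 2 were called higher and 2 lower, where 7.50% and 12.3% were. The sums of 6 thalamus genes were 27.60 to 52.66 TPM in the mutant-labelled libraries and 44.35 to 56.66 TPM in wild-type libraries, those of 8 neocortex genes 84.12 to 153.4 TPM against 140.5 to 163.5 TPM, and those of 8 striatum genes 76.64 to 100.2 TPM against 115.6 to 126.6 TPM. In the thalamus list *Plekhg1* was called lower (-2.04, limma adjusted p = 0.0139), and in the neocortex list *Rorb* was (-1.21, limma adjusted p = 0.0246). In the striatum list *Ppp1r1b* was called lower (-0.72, limma adjusted p = 0.0331) and *Tac1* was called higher (1.52, limma adjusted p = 0.0106). Some choroid plexus genes were high in 1 library. *Ttr*, which encodes transthyretin, was at 658.02 TPM in the postnatal day 172 mutant-labelled library and at 8.88 to 13.66 TPM in the others, and *Kcne2* was at 4.23 TPM there and at 0.28 TPM or less elsewhere. *Kl*, the gene of klotho, was not raised there, at 4.74 TPM beside 2.81 to 5.33 TPM in the others. *Otx2*, a homeobox gene, was the gene of this list that limma called, and it was lower, at 2.87, 2.19, and 1.67 TPM in the mutant-labelled libraries and 3.48, 6.26, and 6.66 TPM in wild-type libraries (-1.23, limma adjusted p = 0.0471). After median-of-ratios scaling it did not pass (-0.75, limma adjusted p = 0.237). Without the postnatal day 172 mutant-labelled library, the dentate gyrus differences were -0.63 against CA1 and -0.98 against CA2 and CA3, beside -0.62 and -0.96 with all libraries. Leaving it out could not make the genotypes overlap, since they were already separate. Of the 7 meningeal fibroblast genes, limma called 0, and 3 were higher at an unadjusted p below 0.05, where 2.50% of all genes were, with sums of 78.78 to 112.2 TPM against 71.79 to 110.7 TPM. After median-of-ratios scaling *Lum*, *Igf2*, and *Ogn* were called higher (limma adjusted p = 0.0128, 0.00590, and 0.0286), where 7.50% of all genes were. With the pair as a block, limma called *Igf2* and *Ogn* of this list higher (limma adjusted p = 0.0163 and 0.0365), and *Folr1* of the choroid plexus list (0.0207), where 1.18% of all genes were called higher. *Folr1*, like *Ttr*, was highest in the postnatal day 172 mutant-labelled library, at 12.08 TPM. It was at 3.17 and 3.02 TPM in the other mutant-labelled libraries and at 1.16 to 2.76 TPM in wild-type libraries. *Dcn*, the gene of decorin and the most abundant of the meningeal list, had a negative difference (-0.40, limma adjusted p = 0.215), at 52.09 to 57.05 TPM against 57.69 to 82.21 TPM, and *Col1a2* was at -0.55, with overlapping levels of 0.89 to 3.21 TPM and 1.57 to 3.99 TPM. The part of these cells in the marker differences was not tested.

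The genes whose levels followed each group of markers most closely over the 6 libraries were sought among 10999 genes with a mean of at least 5 TPM. For the dentate gyrus markers these were *Ctif*, *Cul9*, and *Adra1d*, with Pearson r of 0.999, 0.998, and 0.997 to the mean standardized level of the markers. *Adra1d*, an adrenergic receptor gene, was at 10.96, 14.92, and 22.43 TPM in the mutant-labelled libraries and 34.17, 19.40, and 40.04 TPM in wild-type libraries. Such likeness was common, since 414 genes had an r above 0.95. For the CA1 markers the closest genes were *Got2*, *Pdk2*, and *Syn1* (r of 0.999, 0.997, and 0.995), of 99 genes above 0.95, and for the CA2 and CA3 markers *Bphl*, *Prdm16os*, and *Mfsd12* (0.997, 0.995, and 0.994), of 175. *Syn1*, a synaptic vesicle gene of all neurons, was at 80.05, 102.27, and 154.33 TPM against 167.97, 67.59, and 101.99 TPM. It shared with the CA1 markers the low wild-type library of postnatal day 146 and the high mutant-labelled library of postnatal day 108. These correlations describe 6 libraries that share their scaling and genotype, and no p is given.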

How the data were processed

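Poly(A) RNA of hippocampi from 3 mutant-labelled libraries and 3 wild-type libraries was sequenced as strand-specific paired-end reads. After trimming, the authors aligned the reads to GRCm39, ribosomal RNA excluded, with STAR and estimated gene levels with RSEM. The deposited values are TPM with 2 decimals. The submitters' processing notes name featureCounts and STAR 2.7.10a, and the annotation release is not given in the sources used here. TPM keep no depth, so no counting interval is given. A table in which every library has the same total lowers all other genes where a few abundant genes rise, which is why other scalings were tried.

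Genes with at least 0.5 TPM in at least 3 of 6 libraries (18509) were tested with limma 3.58.1 in R 4.3.3 on log2(TPM + 0.1), which understates changes of low genes, with an intensity trend, a single term for genotype, and p-values adjusted by Benjamini-Hochberg over all tested genes. A call is an adjusted p below 0.05. The limma step was tested on simulated data. Gene positions came from GENCODE M39 (GRCm39). Annotation and promoters were handled in python 3.11.15. Alternatives were other pseudocounts and filters, other scalings, corrections for gene properties, and leaving out libraries, pairs, and markers.

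The study describes littermate pairs of equal age, which pairs the libraries. Deviations from the genotype mean correlated between paired libraries at -0.011, 0.112, and 0.178 (replicates 1, 2, and 3). The pair was a block in an alternative only, since the study's methods name no block.

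The markers and lists were chosen with earlier results of these data known. Named genes were the 10 markers, *Hoatz*, the called genes of each wider list with the one of smallest difference, genes describing lists that moved with genotype (the largest and smallest differences), and for likeness the 3 genes of highest r per subfield. Some genes of these lists are not reported here. *Nefl*, *Neurod2*, *Neurod6*, *Slc17a7*, *Kcne2*, *Kl*, *Otx2*, *Folr1*, *Igf2*, *Ogn*, *Dcn*, *Col1a2*, *Lum*, *Cx3cr1*, *Aqp4*, *Slc1a3*, *Gja1*, *Mog*, *Drd2*, *Nts*, *Lct*, *Sema5b*, *Tyro3*, *Stard5*, *Rgs14*, *Necab2*, and the called genes of the tissues beside the hippocampus were named after their values were seen.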

Additional observations from a re-analysis of the deposited data

How the results depend on the processing

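On the deposited scale 1 marker was called higher (*Bok*) and 1 lower (*C1ql2*), of 171 and 3622 genes. With the stricter fold threshold of 2 on the log2 scale the counts were 0, 0, 11, and 1403. Markers higher, markers lower, genes higher, and genes lower were 2, 0, 1388, and 2280 after median-of-ratios scaling, and 2, 0, 1459, and 1910 after quantile normalization. They were 0, 0, and 89 (first 3) without the intensity trend. Without mitochondrially encoded genes 2 markers and 340 genes were called higher and 0 markers lower, and with pan-neuronal centring 0 markers were lower and 429 genes higher. With no filter 0 markers were higher, and with a mean TPM of at least 5, 2167 genes were lower. Leaving out libraries or pairs gave 0 to 2 markers higher, 0 to 2 lower, 48 to 241 genes higher, and 1477 to 7324 lower, with 7324 lower without the mutant-labelled postnatal day 108 library. With the replicate block 1 marker was higher (*Bok*, limma adjusted p = 0.0383) and 1 lower (*C1ql2*, limma adjusted p = 0.0223), so the paired fit changed no marker's call on this scale, and it called 11 wider subfield genes lower in place of 7. With the block and median-of-ratios scaling 3 markers and 1651 genes were higher and 0 and 2302 lower.

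Leaving out single markers was not planned beforehand. Corrections for gene properties were chosen after seeing the data. That for transcript length and GC content gave 2 markers and 267 genes higher, and with the block 2, 307, and 6088 genes lower. That for gene span gave 0 markers in either direction and moved the CA1 minus CA2 and CA3 difference to -0.62. With the median over markers the dentate gyrus minus CA1 difference was -0.37 and that of CA1 minus CA2 and CA3 was -0.62. With the wider lists the dentate gyrus differences were -0.31 and -0.60.

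Of the markers that changed their sign, *Mpped1* was called under 1 alternative, higher at 0.59 (limma adjusted p = 0.0428) with the block and median-of-ratios scaling, and the others under none of those run. After median-of-ratios scaling, with and without the block, *Dsp* was at 0.0043, *Fibcd1* at 0.20, and *Amigo2* at 0.39. After quantile normalization these were 0.092, 0.16, and 0.40. *Amigo2* was at 0.13 without mitochondrially encoded genes, 0.0065 with pan-neuronal centring, and 0.43 with the span correction. With the length and GC correction, with and without the block, *Wfs1* was at -0.034, *Mpped1* at -0.13, and *Nptx1* at -0.15. Leaving out 1 library or pair at a time gave -0.42 to 0.21 for *Amigo2*, -0.088 to 0.69 for *Wfs1*, -0.024 to 0.35 for *Mpped1*, -0.33 to 0.66 for *Nptx1*, -0.84 to 0.035 for *Dsp*, and -0.55 to 0.088 for *Fibcd1*. The causes were not tested.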
